A study of Mus musculus with 4 samples.

Results

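The genes described here are 10 genes of the ATF4 branch of the integrated stress response, measured by long-read RNA sequencing in cultured mouse neural stem cells with and without Cre recombinase. They are the transcription factor gene Atf4, 5 stress-response genes (Ddit3, Atf3, Trib3, Chac1 and Ddit4) and 4 enzyme genes of amino acid synthesis (Asns, Psat1, Phgdh and Shmt2). Entries of the deposited isoform table belonged to a member when the Ensembl gene identifier at the end of their name carried its symbol in GENCODE M21. All 10 symbols were found, with 38 of the 46637 isoform entries that named a gene. They were 10 of 14949 genes with entries, and all 10 were among the 9882 genes that passed the expression filter.

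The study asked how loss of Tut1, the gene of the terminal uridylyltransferase that acts on U6 snRNA, changes mRNA in neural stem cells, and whether deleting the tumour suppressor gene Trp53 as well alters the outcome. Primary cells from the neocortex of mid-gestation floxed mouse embryos were grown with bFGF and EGF and received lipid nanoparticles (LNP) for 3 days. The control was Tut1f/f cells with empty LNP, which carried the floxed alleles undeleted, and it was the only library without Cre mRNA. Cre mRNA was delivered to the other 3 cultures. They are Tut1f/f;Cre (the Tut1 library below), Trp53f/f;Cre (p53f/f in the labels, the Trp53 library below) and, floxed at both genes, Tut1f/f;Trp53f/f;Cre (the double-labelled library below). No library of Trp53f/f or double-floxed cells without Cre mRNA was analysed here. Each genotype had 1 library, so a difference between 2 libraries had no replicate check. The intervals below come from the read counts of single libraries and cover no more than counting error. Reads were amplified by PCR and not counted as molecules, so the intervals can be too narrow even for that.

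When eIF2 is phosphorylated by a stress-sensing kinase, general translation falls while translation of the Atf4 mRNA rises through short upstream reading frames in its leader. ATF4 then dimerises with other basic leucine zipper proteins and activates genes for amino acid synthesis, amino acid import and tRNA charging, together with the stress-response genes CHOP (Ddit3), ATF3, TRIB3 and CHAC1. Because this control is largely translational, mRNA reads do not measure ATF4 protein.

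ATF4 target promoters can carry a C/EBP-ATF response element. Its core letters TGATGNAA, or TTNCATCA on the other strand, were searched in RefSeq promoter windows (GRCm38.p6, 250 bases before to 50 after the start site), which held all 10 members in 11 windows, with Psat1 in a pair of them. The letters occurred for 4 of the 10 members, against 1304 of 32851 windows overall (3.97%), and for 1219 of 27025 genes (4.51%). The stretches of 30 bases around these matches are shown because they are the letters through which ATF4 dimers are known to bind DNA, with the match in capitals.
Atf3 (chr1:191183425-191183454, minus strand): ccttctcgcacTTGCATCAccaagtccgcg
Chac1 (chr2:119351038-119351067, plus strand): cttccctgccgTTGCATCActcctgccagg
Trib3 (chr2:152344028-152344057, minus strand): ttagctcaggtTTACATCAgccgggcgggg
Asns (chr6:7693214-7693243, minus strand): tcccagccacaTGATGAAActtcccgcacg
Each is written 5′ to 3′ along the gene. Counted from the start site, the match began at position -110 in Atf3, -193 in Chac1, 15 in Trib3 and -23 in Asns. The windows of Atf4, Ddit3, Ddit4, Psat1, Phgdh and Shmt2 did not hold these letters. No binding was measured in this series.

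Reads naming a gene numbered from 2863392 to 4244467 per library. The control library stood apart: the ribosomal RNA gene CT010467.1 took 18.7% of its gene reads against 5.46% to 9.76% in the others, and 17.2% of its reads named no gene against 27.3% to 30.2%. Tut1 itself had 37 reads in the control, 11 in the Tut1 library, 14 in the Trp53 library and 27 in the double-labelled library. The last value shows no fall, since the scaled level (CPM, defined below) was 9.15 there and 9.30 in the control. Gene-level reads do not show whether the floxed exon was present, so they do not settle whether Tut1 was deleted. The paper read deletion from the floxed exon and reported it as efficient in Tut1f/f cells with Cre mRNA. The Trp53 library is not labelled as floxed at Tut1. Its Tut1 level was 4.02 CPM, below the control (log2 ratio -1.21, -2.21 to -0.29) and near the 3.63 CPM of the Tut1 library. Gene-level Tut1 reads thus did not follow the Tut1 labels. Trp53 had 175, 67, 10 and 19 reads in the same order. Xist had 44 and 49 reads in the Tut1 library and the Trp53 library and 0 in the other libraries, while 3 Y-linked genes had 60 to 155 reads in the control and the double-labelled library and 0 in the former pair. The cells therefore came from embryos of different sex, also within the Tut1f/f genotype. Of 12 neural stem cell markers 10 had reads, with a summed level of 11594 to 13393 CPM that was mostly Fabp7 (9382 to 11381 CPM). By the 2-fold rule below 4 of the 10 were higher and 0 lower in the Tut1 library than in the control, 3 and 1 in the Trp53 library and 1 and 1 in the double-labelled library, where 12.7% and 13.3%, 12.5% and 15.3%, and 10.3% and 9.76% of all genes were higher and lower, and edgeR called Hes1 (log2 fold change 1.65, FDR 0.00130) and Sox9 (1.14, FDR 0.0173) higher with Cre status. Vim, the most abundant stem cell marker after Fabp7, had a fitted value of -0.92 with Cre status, which is under 2-fold, and Fabp7 one of 0.05. The log2 ratios of Vim to the control were -0.74, -1.03 and -1.02 in the Tut1, Trp53 and double-labelled libraries. Markers of microglia, endothelium and mesenchyme summed to 2.01 to 5.42 CPM, and 8 of the 10 had no entries. The oligodendrocyte lineage list, with 7 of 7 markers read, summed to 385 CPM in the control and to 643, 732 and 525 in the Tut1, Trp53 and double-labelled libraries, the astrocyte list to 112, 62.7, 55.7 and 89.1 with Gfap at no entries, and the neuron list to 92.3, 87.8, 76.9 and 95.6. The fall in the astrocyte sum was mostly Aldh1l1 (47.0, 5.28, 3.16 and 24.1 CPM), and with Cre status, tested below, edgeR called 1 of 4 astrocyte markers lower and 0 of 5 oligodendrocyte lineage markers, against 8.4% of all genes lower and 7.94% higher. The part of these markers in the results below was not tested.

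The 4 enzyme genes and Atf4 were highest in the control or nearly so, and all 5 were lower in the Tut1 library. Levels are given as CPM, the reads of a gene over each 1e6 gene reads after TMM scaling, which corrects library size for differences in composition. A pair of libraries was counted as different at a CPM ratio of 2-fold or more where the exact 95% interval lay off no change, which is a description of these libraries and not a test. By that rule 5 of 10 members were lower and 0 higher in the Tut1 library than in the control, where 13.3% of all genes were lower and 12.7% higher. In the Trp53 library 4 members were lower and 1 higher, against 15.3% and 12.5% of all genes. In the double-labelled library 2 were lower and 1 higher, against 9.76% and 10.3%. The median log2 ratio of the members was -1.16, -0.49 and -0.34 in that order, against -0.01, -0.02 and -0.01 over the 9882 genes. These comparisons share the control library, and the members were chosen with earlier results of these data known. The counts beside the shares of all genes are therefore a description and not a test of the set. In bulk cells, fewer cells that express a gene and less RNA per cell cannot be told apart.

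**Figure D1:**
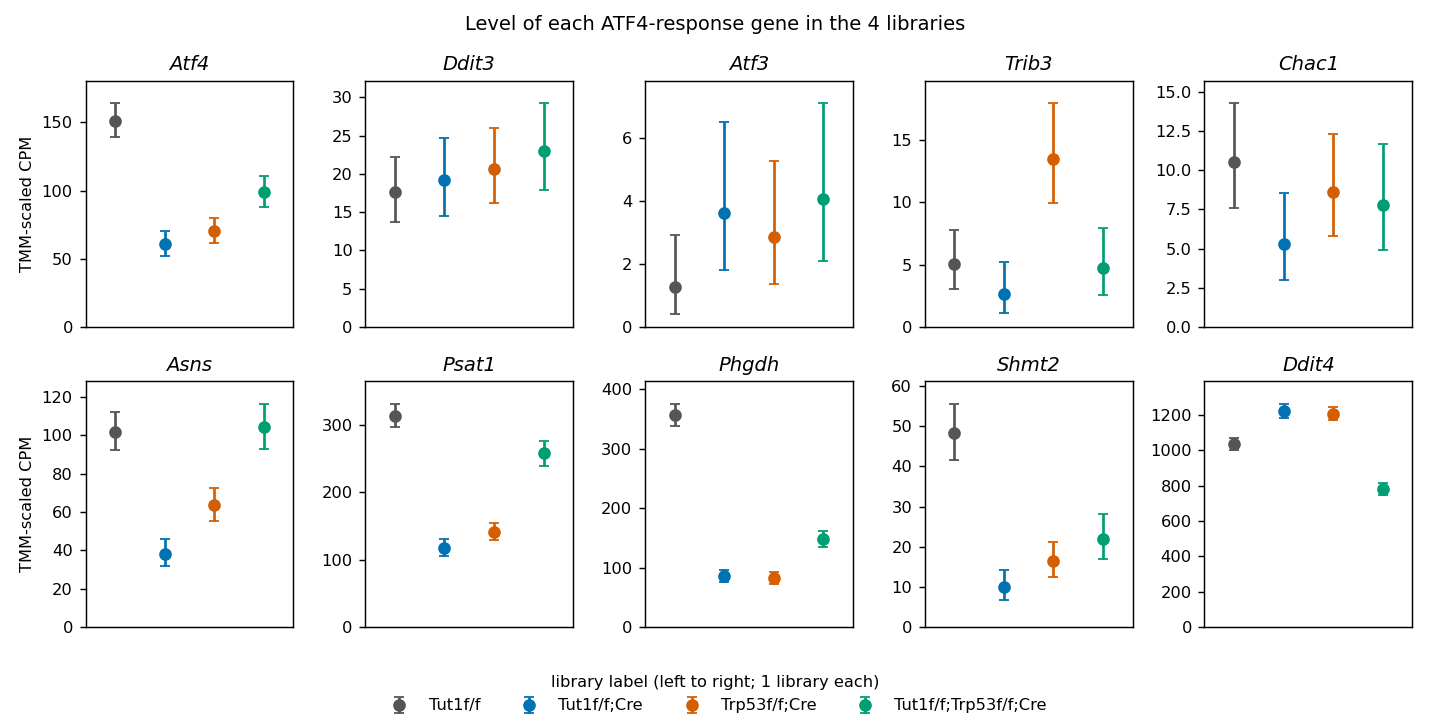
Level of each member in the 4 libraries in CPM after TMM scaling, with the exact Poisson 95% interval of the count, on axes that start at 0. Atf4, Psat1, Phgdh and Shmt2 were highest in the control, Trib3 was highest in the Trp53 library, and the 4 intervals of Ddit3 overlap.

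Atf4 (ENSMUSG00000042406, chr15:80255184-80257541 on GRCm38) encodes the transcription factor that drives the response. It had 602 reads in the control, 184 in the Tut1 library, 245 in the Trp53 library and 291 in the double-labelled library, or 151, 60.8, 70.3 and 98.6 CPM. The control was highest and its interval (140 to 164 CPM) overlapped none of the others. The log2 ratio to the control was -1.32 (95% interval -1.56 to -1.08) in the Tut1 library, -1.11 (-1.33 to -0.89) in the Trp53 library and -0.62 (-0.82 to -0.41) in the double-labelled library. The intervals of the Tut1 library and the Trp53 library overlapped (log2 ratio -0.21, -0.49 to 0.07), and the double-labelled library lay above both, by 0.70 (0.43 to 0.97) and 0.49 (0.24 to 0.74).

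Phgdh (ENSMUSG00000053398, chr3:98313170-98339990) encodes phosphoglycerate dehydrogenase, the first enzyme of serine synthesis from glycolytic intermediates. It had 1417, 260, 286 and 435 reads in the order used above, or 356, 85.8, 82.1 and 147 CPM. It was 4.15-fold lower in the Tut1 library (log2 ratio -2.05, -2.25 to -1.86), 4.34-fold lower in the Trp53 library (-2.12, -2.31 to -1.93) and 2.42-fold lower in the double-labelled library (-1.27, -1.43 to -1.12). The Tut1 library and the Trp53 library did not differ beyond counting error (0.06, -0.18 to 0.31).

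Psat1 (ENSMUSG00000024640, chr19:15904678-15947337) encodes phosphoserine aminotransferase, the next enzyme of the same route. It had 1248, 358, 492 and 761 reads, or 314, 118, 141 and 258 CPM. The 2 libraries with Cre mRNA and a single genotype were more than 2-fold lower than the control, at a log2 ratio of -1.41 (-1.58 to -1.24) with Tut1f/f and of -1.15 with Trp53f/f, whose interval ran from -1.31 to just past the 2-fold line. The double-labelled library was 1.22-fold lower (-0.28, -0.41 to -0.15), which is under the fold required.

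Shmt2 (ENSMUSG00000025403, chr10:127517123-127522444) encodes the mitochondrial serine hydroxymethyltransferase, which makes glycine and one-carbon units from serine. It had 192, 30, 57 and 65 reads, or 48.3, 9.90, 16.4 and 22.0 CPM. Its ratio was the lowest of any member in the Tut1 library, 4.87-fold below the control (log2 ratio -2.29, -2.89 to -1.72, or -3.45 with reads of plain Ensembl transcripts alone), and it was also lower in the Trp53 library (-1.56, -2.01 to -1.13) and the double-labelled library (-1.13, -1.56 to -0.72). It overlaps Ndufa4l2 on the other strand, as Psat1 overlaps Gm3329 and Atf3 Gm24748, and whether the table used strand was not given in the sources used here.

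Asns (ENSMUSG00000029752, chr6:7675169-7693254) encodes asparagine synthetase. It had 405, 116, 221 and 307 reads, or 102, 38.3, 63.4 and 104 CPM. The control and the double-labelled library had like levels (log2 ratio 0.03, -0.19 to 0.25), the Trp53 library was between (-0.68, -0.93 to -0.44) and the Tut1 library was lowest (-1.41, -1.72 to -1.11). The Tut1 library was below the Trp53 library for Asns (-0.73, -1.06 to -0.40), and less than 2-fold below it for Psat1 (-0.26, -0.46 to -0.06) and Shmt2 (-0.72, -1.41 to -0.06) as well.

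The stress-response genes showed no common direction. Ddit3 (ENSMUSG00000025408, chr10:127290774-127296288), the gene of CHOP, a transcription factor linked to cell death under lasting stress, had 70, 58, 72 and 68 reads, or 17.6, 19.1, 20.7 and 23.0 CPM. None of the 6 pairs of libraries differed beyond counting error, and the largest ratio to the control was 0.39 (-0.11 to 0.89). With reads at the locus that named no gene added, an alternative chosen after the data were seen, the ratio was 0.48 (0.06 to 0.91) in the Tut1 library and 0.50 (0.09 to 0.91) in the Trp53 library, off no change and under 2-fold. Another GENCODE gene with the symbol Ddit3 and the genes Mars and Gm4189 overlap it, so reads of this locus can be shared.

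Trib3 (ENSMUSG00000032715, chr2:152337422-152344032) encodes a pseudokinase that restrains ATF4 and AKT. It had 20, 8, 47 and 14 reads, or 5.03, 2.64, 13.5 and 4.74 CPM. The Trp53 library was higher than each of the others: 2.68-fold above the control (log2 ratio 1.42, 0.64 to 2.26), with the Tut1 library (-2.35, -3.65 to -1.26) and the double-labelled library (-1.51, -2.48 to -0.62) below it. Atf3 (ENSMUSG00000026628, chr1:191170296-191218039), a stress-induced repressor and activator of the same protein family, had 5, 11, 10 and 12 reads, or 1.26, 3.63, 2.87 and 4.07 CPM. The control was lowest, and of the 3 ratios to it the rule counted that of the double-labelled library, at 1.69 (0.09 to 3.55).

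Chac1 (ENSMUSG00000027313, chr2:119351229-119354381), which encodes an enzyme that degrades glutathione, had 42, 16, 30 and 23 reads, or 10.6, 5.28, 8.61 and 7.80 CPM. Its log2 ratio in the Tut1 library was -0.999 (-1.93 to -0.14), just short of 2-fold, so it was not counted, and it passed in 2 other scalings (-1.03 and -1.02), which made 6 members lower there. Ddit4 (ENSMUSG00000020108, chr10:59949669-59951834), which encodes REDD1, an inhibitor of mTORC1, had 4115, 3701, 4195 and 2303 reads, or 1035, 1222, 1204 and 781 CPM. It was slightly higher than the control in the Tut1 library (0.24, 0.18 to 0.30) and the Trp53 library (0.22, 0.16 to 0.28) and lower in the double-labelled library (-0.41, -0.48 to -0.33), each under 2-fold.

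**Figure D2:**
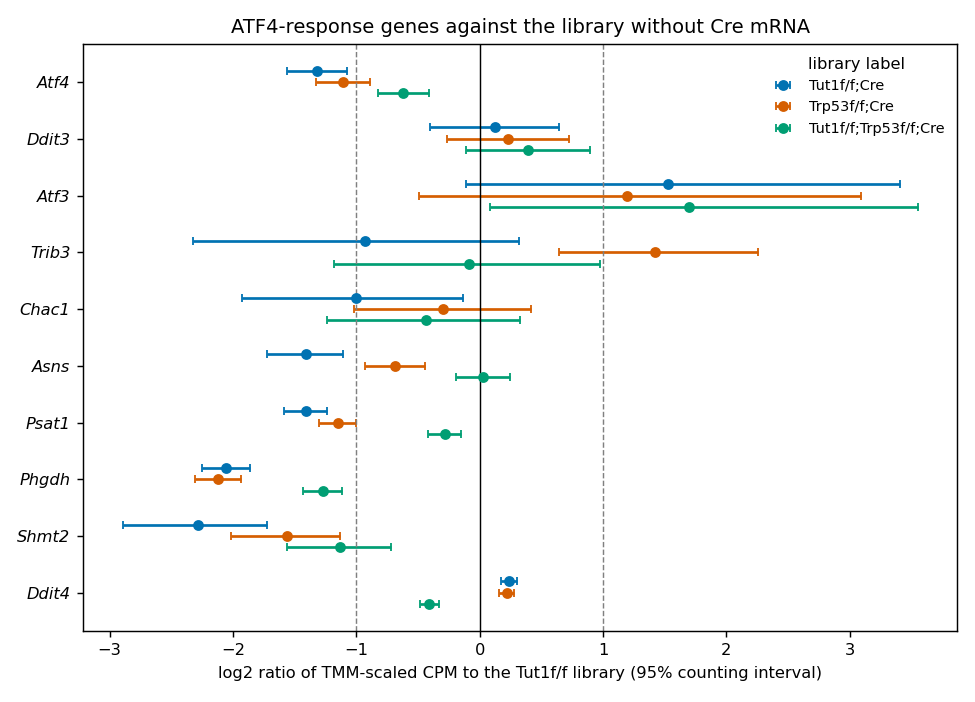
Log2 ratio of each member's level to that in the control for the 3 libraries with Cre mRNA, with exact 95% counting intervals. The solid line marks no change and dashed lines mark 2-fold. Phgdh and Shmt2 lie beyond the lower dashed line in all 3 libraries, and Ddit3 and Ddit4 in none.

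The control library was tested against the 3 libraries with Cre mRNA as a group, with edgeR's quasi-likelihood test and Benjamini-Hochberg adjustment over all genes, and calls required an FDR under 0.05 and a 2-fold change. Phgdh (log2 fold change -1.76, SE 0.29, FDR 0.00315) and Shmt2 (-1.58, SE 0.35, FDR 0.0105) fell. Over all genes 8.4% were called lower and 7.94% higher. Atf4 (-0.98, SE 0.27, FDR 0.0266) passed the FDR and not the fold, and Psat1 (-0.86, SE 0.34, FDR 0.0934) passed neither. The fitted values of the other members were -0.57 for Asns, -0.54 for Chac1, 0.05 for Ddit4, 0.25 for Ddit3, 0.50 for Trib3 and 1.45 for Atf3, with FDRs from 0.148 to 0.917. The sign of Ddit4 and Trib3 was not stable over the alternatives tried, with ranges of -0.06 to 0.23 and -0.46 to 0.88. Without the double-labelled library 4 members were called, with Atf4 at -1.21 and Psat1 at -1.27 joining Phgdh and Shmt2, and without the Tut1 library Atf4 was at -0.84 with an FDR of 0.136 and Psat1 at -0.65 with an FDR of 0.258. The control side of this test was 1 library, the spread came from 3 libraries that differ in genotype and sex, and Cre mRNA, its share of ribosomal RNA and its share of unnamed reads cannot be told apart.

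The labels form a layout of Tut1 and Trp53 status with 1 library in each cell, which an additive model fits with 1 residual degree of freedom. The cell with neither gene labelled as deleted is the only library without Cre mRNA, and the model had no term for Cre mRNA. A difference between the control and the other libraries therefore enters the fitted values of both genes. In edgeR's quasi-likelihood test with Benjamini-Hochberg adjustment no member was called for Tut1 status (0% of all genes called) or for Trp53 status (0.0101%, which is 1 gene, Rpl3-ps1, named after its values were seen), and no member had an unadjusted p under 0.05 with edgeR or DESeq2. Over all genes 187 had an unadjusted p under 0.05 for Tut1 status and 153 for Trp53 status with edgeR, and 70 and 62 with DESeq2. The largest fitted values were -1.23 (SE 0.76) for Trib3, 0.96 (SE 0.92) for Atf3 and -0.92 (SE 0.62) for Shmt2 with Tut1 status, and 1.16 (SE 0.76) for Trib3 with Trp53 status, all at an FDR that rounds to 1. The fit takes the double-labelled library as lacking Tut1 and the Trp53 library as having it. Gene-level Tut1 reads did not follow these labels, and they do not show whether the floxed exon was present.

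An additive model has no room for a Tut1 ratio that depends on Trp53, and the ratios of 5 of the 10 members went in opposite directions with both intervals off 0. Between the Tut1 library and the control, with Trp53 undeleted, Atf4 was at -1.32, Asns at -1.41, Psat1 at -1.41 and Phgdh at -2.05. Between the double-labelled library and the Trp53 library, both labelled as lacking Trp53, the same genes were at 0.49 (0.24 to 0.74), 0.71 (0.46 to 0.97), 0.87 (0.70 to 1.04) and 0.84 (0.63 to 1.07), each under 2-fold. Shmt2 followed at -2.29 and 0.43, the latter with an interval that included no change (-0.11 to 0.97). Ddit4 went the other way, from 0.24 to -0.63 (-0.70 to -0.55). Trib3 was lower in both comparisons, at -0.93 (-2.32 to 0.32) and -1.51, Atf3 was at 1.53 and 0.50 and Chac1 at -0.999 and -0.14, each with the same sign in both, and Ddit3 differed in neither. An interval below 0 with Trp53 undeleted and above 0 with Trp53 deleted was found for 4 of 10 members and for 1077 of 9882 genes (10.9%), and the reverse for 1 member and 5.71% of genes. No test of this difference could be made with 1 library in each cell.

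By the 2-fold rule, 1 member (Trib3) was lower and 0 higher in the double-labelled library than in the Trp53 library, against 2.56% of genes lower and 4.68% higher. Against the Tut1 library the same library was higher for 3 members, Asns (1.44, 1.13 to 1.76), Shmt2 (1.15, 0.51 to 1.83) and Psat1 (1.13, 0.94 to 1.31), and lower for 0, where 2.23% of genes were higher and 2.27% lower. Between the Tut1 library and the Trp53 library 1 member (Trib3) was lower and 0 higher, against 1.16% and 2.19% of genes. The pairs with opposite directions also differ in the sex of the cells in opposite directions, female over male and then male over female. Gene-level Tut1 reads were higher, not lower, in the double-labelled library of the pair labelled as lacking Trp53 (log2 ratio 1.19, 0.21 to 2.23). The pair with Trp53 undeleted also differs in Cre mRNA and includes the control library, while both libraries of the other pair received Cre mRNA. The Trp53 library, not labelled as deleted at Tut1, was below the control as well for Atf4 (-1.11), Asns (-0.68), Psat1 (-1.15) and Phgdh (-2.12). Genotype, sex, Cre mRNA and the traits of the control library cannot be told apart here.

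**Figure D3:**
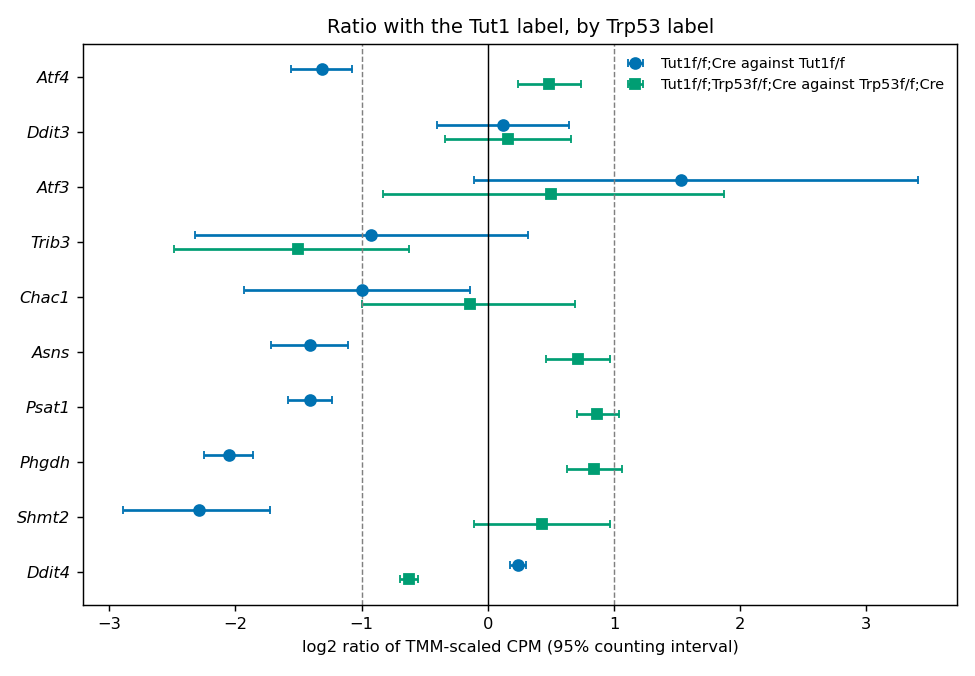
Log2 ratio of each member between libraries that differ in the Tut1 label, with Trp53 undeleted (circles) and deleted (squares), and exact 95% counting intervals. Atf4, Asns, Psat1 and Phgdh have intervals on opposite sides of the solid line of no change, as does Ddit4 with the order reversed.

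Isoforms were compared as the percentage of their gene's reads, with Wilson 95% intervals. Reads of an isoform and of the rest of its gene were set against each other in every pair of libraries by Fisher's exact test (two-sided), adjusted over all isoforms of the pair, which compares those libraries and not the conditions. Calls required an FDR under 0.05 and 10 percentage points. Trib3, Chac1, Atf3 and Ddit4 had 1 entry each, so their usage could not vary. The 2 entries of Atf4 were Atf4-201 (ENSMUST00000109605) and a variant of Atf4-202 (ENSMUST00000229828). In the annotation Atf4-202 removes an intron of 283 bases (chr15:80255285-80255567) from the first exon of Atf4-201, in the untranslated leader upstream of the start codon. Atf4-202 is also annotated as ending earlier, at 80256759 against 80257541, with 659 spliced bases against 1725 and 349 coding bases against 1047. The table names the variant after Atf4-202 and gives no exon structure for it, so its own splicing was not examined.

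The Atf4-202 variant followed the Trp53 label. It had 69 of 602 Atf4 reads in the control (11.5%, 9.16 to 14.3), 21 of 184 in the Tut1 library (11.4%, 7.59 to 16.8), 70 of 245 in the Trp53 library (28.6%, 23.3 to 34.5) and 70 of 291 in the double-labelled library (24.1%, 19.5 to 29.3). Both libraries with a Trp53f/f label lay above both others without overlap of the intervals. The difference from the control was 17.1 percentage points in the Trp53 library (exact test, FDR 2.54e-07) and 12.6 points in the double-labelled library (exact test, FDR 0.000109), and the Tut1 library was 17.2 points below the Trp53 library (exact test, FDR 0.00579). The 12.6 points between the double-labelled library and the Tut1 library did not pass (exact test, FDR 0.116). As a level, the variant was at 17.3, 6.93, 20.1 and 23.7 CPM, and Atf4-201 at 134, 53.8, 50.2 and 74.9 CPM, so in both libraries with a Trp53f/f label the variant was not below its level in the control while Atf4-201 was. In edgeR's diffSpliceDGE over the 4 libraries the variant's relative usage rose by a log2 value of 1.18 with Trp53 status, with an unadjusted p of 0.11 and an FDR of 1, so this pattern, looked at after the Atf4 entries were seen, did not pass a test that uses the spread between libraries.

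Other members gave 2 isolated calls, both between the Tut1 library and the control. Shmt2-201 (ENSMUST00000026470) had 52 of 192, 1 of 30, 16 of 57 and 19 of 65 Shmt2 reads, or 27.1%, 3.33%, 28.1% and 29.2%, and was 23.8 points lower in the Tut1 library (exact test, FDR 0.0224). It was not called between the Tut1 library and the libraries with a Trp53f/f label (FDR 0.257 and 0.221), and rests on 30 Shmt2 reads. The variant of Shmt2-206 (which in the annotation has an intron of 1181 bases where Shmt2-201 has one of 1172) made up 33.3% of those reads and 17.2%, 5.26% and 15.4% in the others, with no call. Asns-201 (ENSMUST00000031766) was at 85.9%, 75.0%, 81.4% and 87.6%, 10.9 points lower in the Tut1 library (exact test, FDR 0.0497), while Asns-202, which differs from it in the first exon, was at 9.14%, 14.7%, 12.2% and 8.14% with no call. Ddit3-201 took 78.6% to 89.7% of Ddit3 reads, Psat1-201 73.7% to 79.9% and Phgdh-201 95.4% to 97.2%, and none was called in any pair. Further entries of Asns and Shmt2 carried the name of a read and no annotated transcript, and none of these was called.

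In all, 2 of 21 member isoforms tested were called between the Tut1 library and the control, 2 of 20 in each of the other comparisons with the control, 2 of 18 between the Tut1 library and the Trp53 library and 0 of 18 in the remaining pairs. Since Atf4 had 2 entries, each of its calls counts both. The background of calls over all isoforms was 8.66%, 9.12% and 6.49% in the Tut1 library, the Trp53 library and the double-labelled library against the control, 0.222% between the Tut1 library and the Trp53 library, 1.24% between the double-labelled library and the Trp53 library and 0.15% between the double-labelled library and the Tut1 library. With Tut1 or Trp53 status, diffSpliceDGE called 0 of the 24 member isoforms tested and 0 of 21738 in all. At an unadjusted p under 0.05 there were 0 member isoforms for either, and 222 and 153 isoforms in all.

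**Figure D4:**
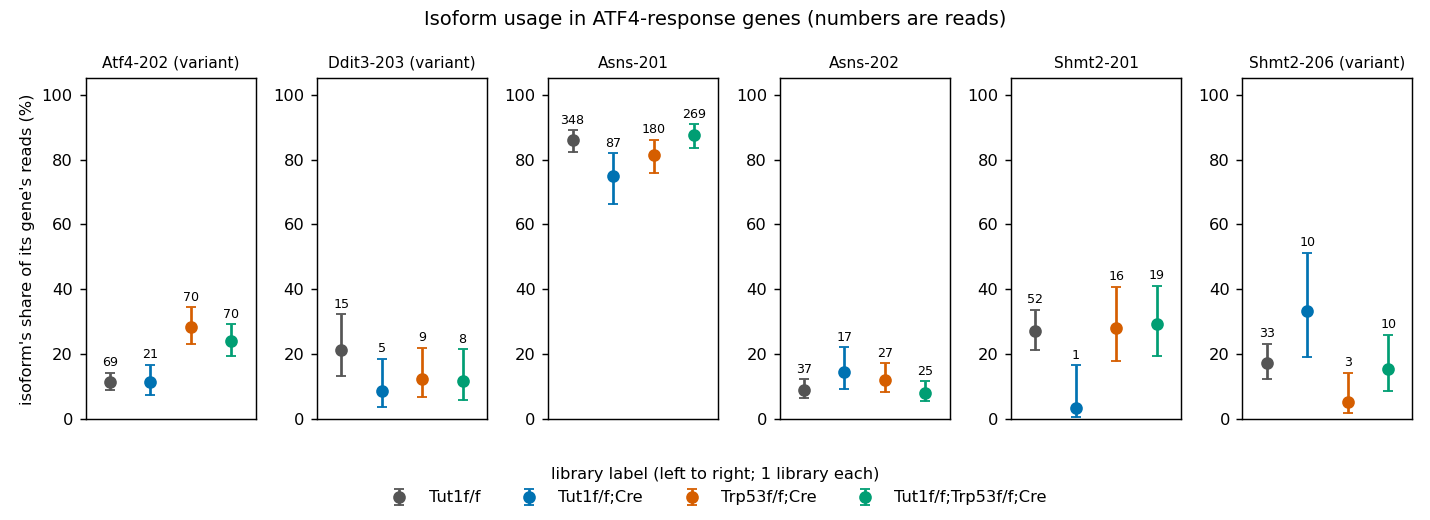
Share of a gene's reads held by 6 isoforms of Atf4, Ddit3, Asns and Shmt2 in the 4 libraries, with Wilson 95% intervals and the isoform's reads printed above each point. The Atf4-202 variant is at 11.5% and 11.4% in the libraries without Trp53f/f and at 28.6% and 24.1% in those with it.

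The wider pathway was described with lists of other genes. The eIF2 list holds the kinases that sense stress, eIF2 and eIF2B subunits and the phosphatase subunits that end the response. Of its 15 genes, 2 were higher and 1 lower in the Tut1 library than in the control (12.7% and 13.3% of all genes), 2 higher and 4 lower in the Trp53 library (12.5% and 15.3%), and 2 higher and 0 lower in the double-labelled library (10.3% and 9.76%). The genes higher in all 3 were Eif2ak2, the gene of the RNA-sensing kinase PKR (log2 ratios 1.12, 1.01 and 1.25), and Gcn1l1, the gene of the ribosome-bound activator of the kinase GCN2 (1.39, 1.19 and 1.53), and edgeR called both higher with Cre status (FDR 0.0480 and 0.0187). The kinase genes Eif2ak1, Eif2ak3 and Eif2ak4 were not counted as different in any of these comparisons.

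Several amino acid genes beyond the members were lower in every library with Cre mRNA. Of 15 genes for serine, glycine, proline and one-carbon synthesis, 0 were higher and 4 lower in the Tut1 library, 0 and 5 in the Trp53 library, and 1 and 4 in the double-labelled library, where 13.3%, 15.3% and 9.76% of all genes were lower, with median log2 ratios of -0.63, -0.44 and -0.06. Among those lower in all 3 libraries were the proline synthesis genes Aldh18a1 (-2.55, -2.75 and -1.56) and Pycr1 (-2.47, -2.67 and -1.92) and the folate enzyme gene Mthfd1 (-1.05, -1.18 and -1.09). Their fitted log2 fold changes with Cre status in edgeR were -2.19, -2.32 and -1.10. Psph, the last step of serine synthesis after Phgdh and Psat1, was not counted as different (-0.47, -0.31 and 0.33), nor was Mthfd2, a mitochondrial folate enzyme gene widely used as an ATF4 target (-0.63, 0.02 and -0.00).

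Of 11 amino acid transporter genes 9 passed the filter. In the Tut1 library 0 were higher and 4 lower, in the Trp53 library 2 and 5, and in the double-labelled library 0 and 4, beside the same shares of all genes. The glycine transporter Slc6a9 (-2.96, -3.48 and -1.43) and the neutral amino acid transporter Slc38a2 (-2.55, -3.01 and -1.77) were lower in all 3, from 51 and 46 reads in the control, and both fell in edgeR's test (FDR 0.0132 and 0.00781). Slc7a5, the large neutral amino acid transporter, was counted as higher in the Trp53 library (0.27, 1.21 and 0.59).

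All 20 cytosolic aminoacyl-tRNA synthetase genes were tested. In the Tut1 library 0 were higher and 6 lower, in the Trp53 library 1 and 10, and in the double-labelled library 1 and 4, where 13.3%, 15.3% and 9.76% of all genes were lower, with medians of -0.76, -0.98 and -0.13. Aars (-2.85, -2.50 and -1.63), Wars (-2.10, -2.27 and -1.06), Dars (-1.56, -2.00 and -1.11) and Farsa (-1.58, -1.38 and -1.01), which charge alanine, tryptophan, aspartate and, in part, phenylalanine tRNAs, were lower in all 3 libraries. edgeR called 5 of the 20 lower and 0 higher with Cre status (8.4% and 7.94% of all genes), the fifth being Tars (FDR 0.0414). Between the double-labelled library and the Trp53 library 4 of the 20 were higher and 0 lower (4.68% and 2.56% of all genes), with a median of 0.55.

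Other ATF4 targets and partners did not share a direction. Of 20 genes 13 passed the filter. In the Tut1 library 1 was higher and 2 lower, in the Trp53 library 4 and 2, and in the double-labelled library 2 and 2. Of all genes, 12.7%, 12.5% and 10.3% were higher and 13.3%, 15.3% and 9.76% lower in these comparisons. Nupr1, a small stress-induced chromatin protein, was higher in all 3 (1.13, 2.17 and 2.45) from 15 reads in the control and was called in edgeR's test (FDR 0.0271). The medians of this list were -0.03, -0.22 and 0.13.

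**Figure D5:**
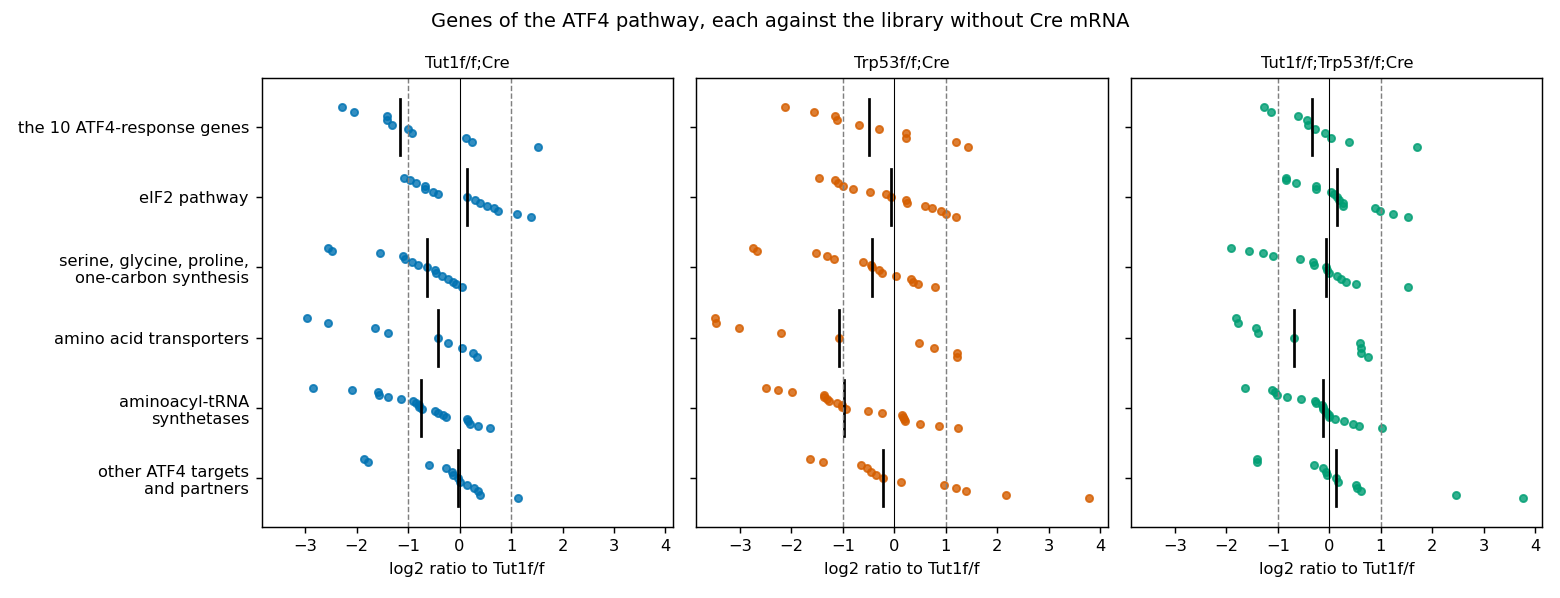
Log2 ratio to the control of the 10 members and of each gene in 5 further lists, for the 3 libraries with Cre mRNA, with a black bar at each list's median and dashed lines at 2-fold. The median of the members lies at -1.16, -0.49 and -0.34, and that of the synthetases at -0.76, -0.98 and -0.13.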

How the data were processed

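The authors deposited 1 table of whole-number read counts per isoform, not normalized, for 4 Nanopore cDNA-PCR libraries. The labels name the build mm10, and the tool that made this table was not given in the sources used here. Counts were summed per Ensembl gene (GENCODE M21), and entries naming no gene (17.2% to 30.2% of a library's reads) stayed out of sizes and tests. Gene counts were tested with edgeR 4.0.16 in R 4.3.3 (TMM, default expression filter, quasi-likelihood F test, SE as the absolute log2 fold change divided by √F), with DESeq2 1.42.0 as the alternative. CPM intervals are exact Poisson, ratio intervals exact conditional binomial. Isoforms needed 10 reads over the pair in genes with 20 reads in each library, and isoforms were named in members with 20 reads in every library. Other list genes were named (up to 4 per list) when at 10 CPM in a library and different from the control in one direction in all 3 others. Any other list gene was named after its values were seen. A gene that this rule would name is not reported here. The members and lists were chosen with earlier results of these data known. Scripts were tested on simulated data. Python 3.11.15 with scipy 1.17.1 was used.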

Additional observations from a re-analysis of the deposited data

Results flagged for a closer look

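The ratio with the Tut1 label went in opposite directions with Trp53 deleted and undeleted for 5 members, with each counting interval on its own side of 0. On the log2 scale the ratio with Trp53 deleted minus that with Trp53 undeleted was 1.81 for Atf4, 2.12 for Asns, 2.28 for Psat1, 2.90 for Phgdh and -0.87 for Ddit4. Each rests on 4 single libraries, so the difference was not tested. The sex of the cells changes in the same way as the direction. Only the pair with Trp53 undeleted differs in Cre mRNA and includes the control library.

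Reads that named no gene, and were used in no comparison, lay at the loci of several members. At Phgdh there were 5 in the control, 21 in the Tut1 library, 32 in the Trp53 library and 28 in the double-labelled library, log2 ratios of 2.46, 2.87 and 2.92 to the control, opposite to the reads that named Phgdh. At Ddit3 there were 23, 41, 43 and 21, with log2 ratios of 1.23 in the Tut1 library and 1.09 in the Trp53 library. Positions of these entries were known to the kilobase only, so they may belong to a neighbouring gene. When they were added to the named reads, an alternative chosen after the data were seen, no member's count by the 2-fold rule changed, and the Ddit3 ratios to the control became 0.48 (0.06 to 0.91) in the Tut1 library and 0.50 (0.09 to 0.91) in the Trp53 library, with intervals off no change.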

How the results depend on the processing

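Over the scalings tried 2 of 60 member ratios changed sign, and these, Asns and Trib3 in the double-labelled library against the control, lay near 0. Scaling by library total raised the median of all genes by 0.12 to 0.14 against the control, with 1 member then higher in the Tut1 library (Atf3), 1 lower in the double-labelled library and 3 lower in the Trp53 library, since Atf4 came to -0.99. Chac1 passed 2-fold in the Tut1 library with DESeq2 size factors (-1.02) and without the ribosomal RNA gene (-1.03), which made 6 members lower. With plain Ensembl transcripts, Shmt2 was at -3.45 in the Tut1 library, 3 members were lower in the Trp53 library against the control (Psat1 came to -0.98), 1 was lower in the double-labelled library against the control and 2 in the Tut1 library against the Trp53 library. A minimum mean of 50 reads left 0 members higher in the Trp53 library or the double-labelled library against the control and 0 lower in the comparisons with the Trp53 library, since Trib3 and Atf3 dropped out. At 1.5-fold, 3 members were higher and 2 lower in the double-labelled library against the Trp53 library. Against the Tut1 library 5 were higher and 1 lower there, and 3 were lower in the Tut1 library against the Trp53 library. Against the control, Chac1 (-0.999) joined the members lower in the Tut1 library, Asns (-0.68) those in the Trp53 library and Atf4 (-0.62) those in the double-labelled library. With Cre status edgeR called 1615 of 9882 genes, DESeq2 980, plain transcripts 1062, and 943 to 2165 were called when a library with Cre mRNA was left out (943 without the Tut1 library, 2165 without the double-labelled library). Of the members 2 to 4 were called in these. Phgdh was called in each alternative, and Shmt2 in each except plain transcripts (-1.49, FDR 0.0604). Atf4 passed 2-fold in 2 other scalings (-1.01 and -1.04) and with plain transcripts (-1.11), and missed the FDR without the Tut1 library (-0.84, FDR 0.136). With Trp53 status 3 genes were called by the library total without ribosomal RNA, 2 without a filter, and 0 with plain transcripts or no Tut1 term, none of them a member. Requiring 20 points left 1 member isoform called between the Tut1 library and the control (Shmt2-201) and 0 in the other pairs, and a minimum of 50 gene reads left 1 (Asns-201). The cause of these changes was not tested, except that filters on reads remove genes and isoforms. No paired analysis was possible because each group has 1 library. Depth limits Atf3, Trib3 and Chac1, at 5 to 47 reads, and the isoforms of Shmt2.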

Other observations

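Sesn2 and Gdf15, stress genes that both ATF4 and p53 are known to activate, had lower ratios to the control in both libraries with a Trp53f/f label than in the Tut1 library, and were picked out after their values were seen. They compare single libraries, and edgeR's test of Trp53 status called neither gene. Sesn2, which encodes a leucine sensor that restrains mTORC1, had 225, 156, 75 and 63 reads in the control, the Tut1 library, the Trp53 library and the double-labelled library, with log2 ratios to the control of -0.14, -1.39 and -1.41. Gdf15, which encodes a secreted stress hormone, had 71, 49, 20 and 20 reads, with ratios of -0.14, -1.64 and -1.40. Nfil3 and Slc7a3 were highest in the Trp53 library, as Trib3 was, at 80 and 75 reads against 35 and 37 in the control.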
